A study of Mus musculus with 131 samples.

Results

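Cyp2e1, Cyp1a2, Cyp2a5, Cyp2a4 and Cyp2a12 are 5 cytochrome P450 genes of mouse hepatocytes, followed here through postnatal life and after deletion of the demethylases Tet2 and Tet3. They are 5 of the 23895 gene names in the RNA table, which has 24397 rows, and were picked by name with their levels already known. RNA levels are in FPKM, read fragments scaled for transcript length and library size. Levels and differences of the 5 genes are therefore given as a description, with no test. All 5 passed the filter on low values (1 FPKM or more as the mean of some condition), which left 11166 genes for the fit. Cyp2e1 lies at chr7:147949731-147960876 on the plus strand and Cyp1a2 at chr9:57524744-57531462 on the minus strand of the mouse genome build mm9. The Cyp2a genes lie on the plus strand of chromosome 7, Cyp2a4 at chr7:27092211-27100107, Cyp2a5 at chr7:27620358-27628283 and Cyp2a12 at chr7:27814109-27821834.

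Cytochromes P450 are heme enzymes of the endoplasmic reticulum that oxidise drugs, toxins and steroids with electrons delivered by P450 oxidoreductase, the product of Por. In the liver, Cyp2e1 and Cyp1a2 are classic genes of the hepatocytes around the central vein, where Wnt signalling is high, and are low around the portal vein. CYP2E1 oxidises ethanol, acetone and acetaminophen, CYP1A2 oxidises caffeine and aromatic amines, CYP2A5 oxidises coumarin and nicotine, and CYP2A4 and CYP2A12 hydroxylate testosterone. Cytosine methylation at CpG sites is removed through oxidation to 5-hydroxymethylcytosine (5hmC) by the TET enzymes.

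The study followed C57Bl mice. RNA came from hepatocytes of uninjected wild-type (WT) mice at 1 week (1 library), 3 weeks (3 libraries) and 15 weeks (3 libraries), and from 15-week-old mice injected with an adeno-associated virus (AAV8) that carries Cre under the hepatocyte-specific Tbg promoter. Injected controls were WT mice given this virus at 1 day (3 libraries) or 3 weeks (3 libraries), and double knockout (DKO) mice carried floxed Tet2 and Tet3 and were given it at 1 day (3 libraries) or 3 weeks (2 libraries), so controls and DKO share the virus and the Cre. Hepatocytes had been perfused, purified on a gradient and sorted by size as CD45-negative cells. Whole-genome bisulfite sequencing (WGBS) covered 1 library each of newborn (labelled 1 week), 15-week WT and 15-week DKO hepatocytes injected at 1 day. Reduced representation bisulfite sequencing (RRBS), chromatin immunoprecipitation, ATAC-Seq and a 5hmC pull-down are introduced with their results. RRBS also covered hepatocytes of mice with a floxed insulin receptor deleted by the same virus (InsR KO, 2 samples), unsorted liver cells of newborn WT kept in culture (labelled 1 week, 2 samples), and 1 WT sample each of fat at 25 weeks and neutrophils at 36 weeks.

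Some libraries stood apart before any comparison. The 3 WT libraries of 3 weeks and library C of the controls injected at 3 weeks had Xist at 48.0 to 88.1 FPKM and the Y-linked Uty and Kdm5d at 0, and every other library had Xist at 0.061 FPKM or less together with Y-linked transcripts. Age and the sex-linked transcripts therefore cannot be told apart between 3 and 15 weeks, and values without library C are given beside the comparison at 3 weeks. The 1-week library had a summed level of 6 erythroid markers of 1791 FPKM and of 5 cholangiocyte markers of 121 FPKM. Every other library had at most 70.6 and 21.2 FPKM, so the 1-week values come from a library of unlike marker content. Relative depth ranged from 0.751 to 1.06 of a 15-week WT library, and Alb, the albumin gene, was listed at 0 in 18 of 18 libraries. Tet2 was at 3.35 FPKM in the DKO injected at 1 day and 1.55 in their controls (log2 difference 0.79 ± 0.20 (SE), adjusted p = 0.0173 by limma), and since a gene-level value also counts exons outside the deleted part it does not check the deletion.

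Cyp2e1 was the most abundant of the genes. Its level was 958 FPKM at 1 week, 2946, 2284 and 3022 FPKM in the WT libraries of 3 weeks, and 3275, 4265 and 4246 FPKM at 15 weeks. The controls injected at 1 day had 2366, 1542 and 2270 FPKM of Cyp2e1, and the DKO injected at 1 day had 207, 194 and 85.3 FPKM. The highest DKO library was thus below the 1-week library, and Cyp2e1 went from the 8th highest mean of all genes in 15-week WT to the 283rd in this DKO. After injection at 3 weeks, Cyp2e1 stood at 1711, 2189 and 4049 FPKM in controls and at 1818 and 1918 FPKM in DKO, so these groups overlapped. In order of mean level the groups ran from 15-week WT through 3-week WT, controls of 3 weeks, controls of 1 day, DKO of 3 weeks and the 1-week library to the DKO of 1 day, and the neighbours from 3-week WT to the DKO of 3 weeks overlapped.

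Cyp1a2 had a lower level and a later increase. It was at 75.8 FPKM at 1 week, at 148, 120 and 196 FPKM at 3 weeks and at 462, 490 and 482 FPKM at 15 weeks. The controls injected at 1 day had 335, 209 and 335 FPKM of Cyp1a2 and the DKO 66.2, 79.5 and 34.8 FPKM, a range that spans the 1-week value. At the later injection Cyp1a2 was at 339, 329 and 384 FPKM in controls and 146 and 155 FPKM in DKO, levels that fall inside the range of WT at 3 weeks. The other overlapping neighbours in the order of Cyp1a2 levels were the 2 control groups, and 15-week WT was above every other group.

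Cyp2a5 spanned the widest range with age. Its level was 14.9 FPKM at 1 week, 178, 118 and 191 FPKM at 3 weeks, and 275, 397 and 464 FPKM at 15 weeks. Controls injected at 1 day had 209, 144 and 315 FPKM of Cyp2a5, against 9.58, 14.2 and 6.86 FPKM in the DKO, all below the 1-week library. With injection at 3 weeks, the Cyp2a5 values were 210, 234 and 423.2 FPKM in controls and 58.9 and 70.6 FPKM in DKO, between the 1-week and the 3-week WT levels. The 4 highest groups of Cyp2a5, from 15-week WT through both control groups to 3-week WT, each overlapped the next, and the lower groups did not.

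Cyp2a4 followed at lower levels. It had 9.62 FPKM at 1 week, 60.8, 42.2 and 63.7 FPKM at 3 weeks and 81.6, 115 and 149 FPKM at 15 weeks. Injection at 1 day left 60.6, 42.5 and 93.4 FPKM of Cyp2a4 in controls and 4.55, 6.52 and 9.63 FPKM in DKO, and injection at 3 weeks 65.8, 72.3 and 449 FPKM in controls and 19.6 and 27.8 FPKM in DKO. Neighbouring groups of Cyp2a4 overlapped except the DKO of 3 weeks, which lay between 3-week WT and the 1-week library without touching either. The 449 FPKM belong to library C, the control library with Xist. The ratio of Cyp2a4 to Cyp2a5 was 0.288 to 0.645 in 16 of 18 libraries, 1.06 in that library and 1.40 in library C of the DKO injected at 1 day. These genes share sequence, since 36.5% of the 50-base windows of the longest Cyp2a4 transcript occur in Cyp2a5 transcripts and 31.0% of those of Cyp2a5 in Cyp2a4, so their split is uncertain for the 50-base reads of the study.

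Cyp2a12 did not share this pattern. Its level was 201 FPKM at 1 week, 518, 343 and 577 FPKM at 3 weeks and 234, 223 and 236 FPKM at 15 weeks, so it was highest at 3 weeks. The controls injected at 1 day had 293, 292 and 321 FPKM of Cyp2a12 and the DKO 326, 373 and 303 FPKM, which overlap. After the later injection controls had 263, 277 and 303 FPKM of Cyp2a12, and DKO had 360 and 387 FPKM. Neighbours in the order of Cyp2a12 levels overlapped, except that both 15-week WT and, below it, the 1-week library stood clear. Of its 50-base windows 27.9% occur in the adjacent gene Cyp2a22, whose mean went from 218 ± 60.2 FPKM (SD, n = 3) at 3 weeks to 33.8 ± 1.33 FPKM at 15 weeks, so part of the Cyp2a12 value may be shared with it.

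**Figure D1:**
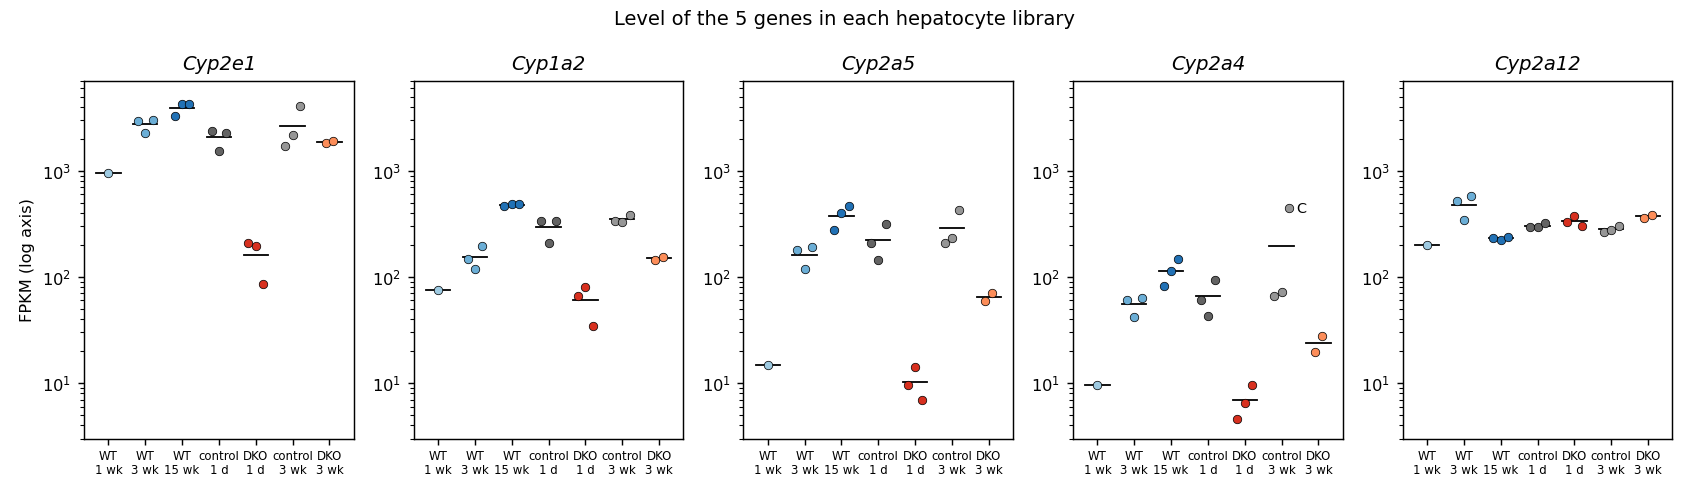
FPKM of each gene (log axis) in each hepatocyte library, grouped by age for uninjected WT and by injection time for controls and DKO, which were all 15 weeks old; points are libraries and bars are group means. The DKO injected at 1 day sits below every other group for Cyp2e1 and below its controls for Cyp1a2, Cyp2a5 and Cyp2a4, while the Cyp2a12 groups lie close together.

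Injection at 1 day addresses expression in hepatocytes that lack Tet2 and Tet3 from soon after birth. On the log2(FPKM + 1) scale, where a pseudocount of 1 understates the change of low genes, Cyp2a5 was lower in DKO by 21.8-fold in mean FPKM (log2 difference -4.30 ± 0.34, SE) and Cyp2e1 by 12.7-fold (log2 difference -3.74 ± 0.35). The fold for Cyp2a4 was 9.49 (log2 difference -3.05 ± 0.57) and for Cyp1a2 4.87 (log2 difference -2.31 ± 0.27). Cyp2a12 had a log2 difference of 0.14 ± 0.16, with a 95% interval from -0.20 to 0.49. The libraries of 4 of the 5 genes did not overlap, with DKO lower, where 29.2% of all 11166 genes were of this kind, and nothing is read from this count since these values chose the genes. Counted from the lowest log2 difference of all genes, Cyp2a5 was the 4th, Cyp2e1 the 7th, Cyp2a4 the 18th and Cyp1a2 the 44th.

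Injected controls of 1 day were themselves below uninjected WT of 15 weeks for these 4 genes, by 1.91-fold for Cyp2e1, 1.63-fold for Cyp1a2, 1.70-fold for Cyp2a5 and 1.75-fold for Cyp2a4, and above it by 1.31-fold for Cyp2a12. Cyp2e1 and Cyp1a2 did not overlap in this lower direction, against 11.3% of all genes, nor did Cyp2a12 in the higher one, against 7.58%. Against uninjected WT the DKO injected at 1 day was therefore lower still, by 24.2-fold for Cyp2e1, 7.94-fold for Cyp1a2, 37.0-fold for Cyp2a5 and 16.7-fold for Cyp2a4. Cyp2a12 was 1.45-fold above WT on that comparison.

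Deletion at 3 weeks left more of each transcript. Cyp2a4 differed by 8.27-fold in mean FPKM (log2 difference -2.42 ± 0.64), Cyp2a5 by 4.46-fold (log2 difference -2.08 ± 0.38) and Cyp1a2 by 2.33-fold (log2 difference -1.21 ± 0.30). For Cyp2e1 the DKO mean was 1.42-fold lower (log2 difference -0.41 ± 0.39, 95% interval -1.24 to 0.42). Cyp2a12 was 1.33-fold higher in DKO (log2 difference 0.41 ± 0.18) with no overlap, as were 16% of all genes, and 32.4% of genes had DKO lower with no overlap, as did 3 of the 5. Without control library C the folds became 2.92 for Cyp2a4, 3.43 for Cyp2a5, 2.22 for Cyp1a2 and 1.04 for Cyp2e1, and 1.38 in the other direction for Cyp2a12.

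The effect at 1 day minus the effect at 3 weeks was largest for Cyp2e1, at -3.33 ± 0.52 on the log2 scale. It was -2.22 ± 0.51 for Cyp2a5 and -1.10 ± 0.40 for Cyp1a2. For Cyp2a4 it was -0.63 ± 0.86 and for Cyp2a12 -0.27 ± 0.24, with intervals that include 0. Without control library C the values were -3.69 ± 0.47 for Cyp2e1, -2.53 ± 0.49 for Cyp2a5, -1.16 ± 0.43 for Cyp1a2, -1.53 ± 0.49 for Cyp2a4 and -0.32 ± 0.26 for Cyp2a12, so the value of Cyp2a4 depended on that library. In mean FPKM the DKO of 3 weeks had 11.5-fold more Cyp2e1 than the DKO of 1 day, 6.33-fold more Cyp2a5, 3.43-fold more Cyp2a4 and 2.50-fold more Cyp1a2.

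With age, Cyp1a2 was 3.09-fold higher at 15 than at 3 weeks (log2 difference 1.65 ± 0.27), Cyp2a5 2.33-fold, Cyp2a4 2.07-fold and Cyp2e1 1.43-fold. These 4 genes did not overlap between the ages, against 32.3% of all genes in this direction. Cyp2a12 was 2.08-fold lower at 15 weeks (log2 difference -1.02 ± 0.16) with no overlap, against 11.3% of all genes. From the single 1-week library to 15 weeks the ratio was 25.4 for Cyp2a5, 11.9 for Cyp2a4, 6.31 for Cyp1a2 and 4.10 for Cyp2e1, while Cyp2a12 had 201 FPKM at 1 week and 231 ± 6.96 FPKM (SD, n = 3) at 15 weeks. The part of the high erythroid and cholangiocyte markers of the 1-week library in these ratios was not tested.

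**Figure D2:**
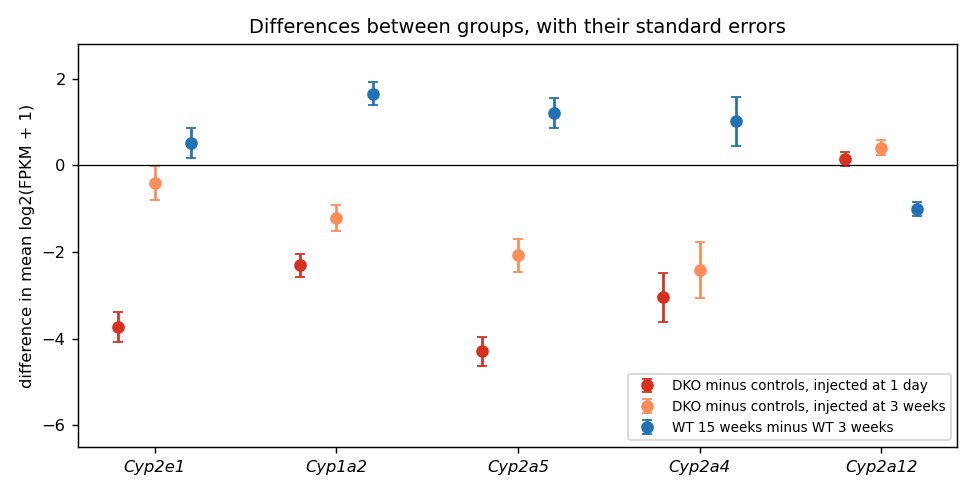
Differences in mean log2(FPKM + 1) for each gene with their standard errors, for DKO minus controls at both injection times and for 15 minus 3 weeks in WT. Cyp2e1, Cyp1a2, Cyp2a5 and Cyp2a4 lie below 0 in DKO and above 0 with age, and Cyp2a12 lies at 0.14 and 0.41 in DKO and at -1.02 with age.

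In bulk libraries fewer cells of a type and less RNA per cell cannot be told apart. Of 8 hepatocyte markers Alb and Serpina1a were at 0 in both groups, and the summed level of the list was 12781 to 16662 FPKM in the DKO of 1 day and 13178 to 18971 FPKM in their controls. Of the 7 tested, Fabp1 and Hnf4a fell, by 0.74 and 0.64 on the log2 scale (adjusted p = 0.0459 and 0.0362), where 15.6% of all genes fell. The sum of 7 leukocyte and Kupffer cell markers was 2.13 to 4.204 against 5.53 to 9.40 FPKM, that of 7 endothelial markers 4.91 to 7.63 against 8.08 to 12.4 FPKM, and that of 6 erythroid markers 12.4 to 15.6 against 53.1 to 70.6 FPKM. The erythroid sum was almost all Alas2, an enzyme gene of heme synthesis, at 12.6 against 58.3 FPKM (log2 difference -2.11, adjusted p = 0.0134), the only 1 of the 6 that was called. Stellate markers overlapped at 3.94 to 6.05 against 4.00 to 19.1 FPKM, and cholangiocyte markers at 8.66 to 13.1 against 12.9 to 21.2 FPKM with Krt7 at 0 in DKO. At the later injection the endothelial sum was 14.1 to 29.5 FPKM in DKO and 5.48 to 13.9 FPKM in controls. Between 3 and 15 weeks the leukocyte sum went from 5.42 to 14.6 FPKM to 1.41 to 2.19 FPKM and the endothelial sum from 16.0 to 26.7 FPKM to 3.85 to 7.05 FPKM, while the erythroid sum went from 12.0 to 16.4 FPKM to 40.1 to 45.7 FPKM. Alas2 rose by 2.84 there (adjusted p = 0.000923), and 3 of the 6 erythroid markers, globin genes, fell, against 9.32% of all genes. The part of these markers in the differences was not tested.

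Across the 18 libraries, the levels of Cyp2e1, Cyp1a2, Cyp2a5 and Cyp2a4 went together with Pearson's r of 0.84 to 0.95 between pairs on the log2(FPKM + 1) scale, a description over libraries that share ages and genotypes. Cyp2a12 had r of -0.29 to -0.05 with them. The genes most like Cyp2e1 were Cyp2c37 (r = 0.96), Cyp2c50 (0.95) and Rdh16 (0.94), and those most like Cyp1a2 were its neighbour Cyp1a1 (0.98), Cyp2c54 (0.96) and Oat (0.95). Cyp2a5 was closest to Cyp2c50 (0.97), Rdh16 (0.95) and Cyp2c54 (0.95), Cyp2a4 to Slc16a11 (0.96), Cyp2c39 (0.95) and Cyp2a5 (0.95), and Cyp2a12 to Ces1b (0.89), B4galnt1 (0.89) and Ces1c (0.88).

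Other genes of the pericentral zone were tested across all genes with limma. All gene lists were chosen with earlier results of these data known. Their counts beside the share of all genes are therefore descriptions and no independent support. Of 20 tested genes on this list, 14 fell in the DKO of 1 day, where 15.6% of all genes fell, with a median log2 difference of -1.86 against -0.11 over all genes. Cyp2c37 fell by 4.88 and Cyp2c29 by 4.69 on the log2 scale (adjusted p = 3.29e-06 and 3.75e-08), and Glul, glutamine synthetase, fell by 3.53 (adjusted p = 0.00102). With libraries scaled to a median log2 ratio of 0 the count stayed at 14, while over all genes the higher share of calls went from 21.7% to 48.3% at 1 day, from 17.2% to 48.7% at 3 weeks of injection and from 72.0% to 50.2% between the ages. In the DKO of 3 weeks 6 of the 20 fell, against 4.34% of all genes, led by Glul (log2 difference -2.46, adjusted p = 0.0417) and Oat, ornithine aminotransferase (-1.98, adjusted p = 0.0326). Without control library C 3 of the 20 fell, Glul by 1.57 (adjusted p = 0.0395), Cyp2c37 by 1.22 (adjusted p = 0.0362) and the Wnt pathway receptor Lgr5 by 0.77 (adjusted p = 0.0337), and Oat had an adjusted p of 0.0501. From 3 to 15 weeks 10 of the 20 rose, against 24% of all genes, led by Oat (log2 difference 3.12, adjusted p = 8.3e-05) and the glutamate transporter Slc1a2 (2.60, adjusted p = 0.00173).

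Of 17 periportal genes 2 rose and 1 fell in the DKO of 1 day, where 4.33% of all genes rose and 15.6% fell. Apof, an apolipoprotein, rose by 1.16 (log2, adjusted p = 0.000136) and Pigr, the polymeric immunoglobulin receptor, fell by 1.95 (adjusted p = 3.01e-05). At 3 weeks 3 of them rose, against 0.905% of all genes, and 1 fell, against 4.34%. Apof was at 0.90 (adjusted p = 0.0083) and Pigr at -1.69 (adjusted p = 0.00129). Without library C 1 of these 3 rose, Apof (0.96, adjusted p = 0.0102). From 3 to 15 weeks 2 rose, against 24% of all genes, Pigr by 2.75 and Cyp2f2 by 1.64, and 5 fell, against 9.32%.

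Of 22 tested regulators and partners of P450 genes 6 fell in the DKO of 1 day, where 15.6% of all genes fell, with a median log2 difference of -0.37 against -0.11 over all genes. Nr1i3, the receptor CAR that drives P450 genes, fell from 33.0, 30.8 and 31.3 FPKM in controls to 2.01, 1.74 and 2.04 FPKM (log2 difference -3.48 ± 0.35, adjusted p = 1.96e-05). Cyb5b, a cytochrome b5, fell by 1.04 (adjusted p = 0.000319). Hnf4a, Cebpb and Hmox1 also fell, with log2 differences of -0.64, -0.89 and -0.95. Ahr, the receptor for aromatic ligands of Cyp1a2 induction, had a log2 difference of -0.81 and Por of -0.53, neither past the threshold. In the DKO of 3 weeks 2 of the 22 fell, against 4.34% of all genes, among them Cyb5b by 0.74 (adjusted p = 0.0212), and without control library C 1 of them fell, Cyb5b (-0.82, adjusted p = 0.0209). From 3 to 15 weeks 6 of the 22 rose, a share near the 24% of all genes, and 1 fell, against 9.32%, with Cyb5b up by 2.05 and Cyb5r3, its reductase, by 1.45.

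Among 11 tested neighbours of the 5 loci, Cyp1a1 and Csk fell in the DKO of 1 day, and 2 of 11 is near the 15.6% of all genes. Cyp1a1, the paralog that lies beside Cyp1a2, went from 4.96, 3.35 and 5.03 FPKM in controls to 1.01, 1.10 and 0.56 FPKM (log2 difference -1.52 ± 0.15, adjusted p = 2.37e-05), and Csk, a kinase gene, fell by 0.47 (adjusted p = 0.0313). Cyp1a1 also fell in the DKO of 3 weeks (log2 difference -1.09, adjusted p = 0.00415), the only neighbour that did, against 4.34% of all genes. Cyp2a22, beside Cyp2a12, had log2 differences of 0.18 and 0.24 in these comparisons, and Edc3 of -0.21 and -0.03, none past the threshold. The other tested neighbours at 1 day were Cyp2f2 (0.69), Cyp2g1 (-0.28), Cyp2b10 (-0.73), Cyp2b13 (1.03), Cyp2b9 (3.50), Cyp2b23 and Sycn (both between -0.03 and 0), and none was called. Between 3 and 15 weeks 3 of the 11 rose, near the 24% of all genes, and 6 fell, against 9.32%, with Cyp2b9 at -7.17 and Cyp2b13 at -5.64 (adjusted p = 0.00178 and 0.00289), genes also on the list of female-biased liver genes. Of 12 female-biased genes 8 fell from 3 to 15 weeks, against the same 9.32%, led by the sulfotransferase genes Sult2a1 and Sult2a2 (-9.36 and -8.40), and of 9 male-biased genes 8 rose, against 24%, led by Mup20 (10.6), in the comparison where age and sex-linked transcripts cannot be told apart. Serpina1e, the other male-biased gene, went from a mean of 1759 FPKM at 3 weeks to being listed at 0 at 15 weeks and was called lower (adjusted p = 1.99e-17). The hepatocyte marker Serpina1a likewise went from 2504 FPKM to being listed at 0. Whether a listed 0 of such abundant genes stands for absent RNA was not tested, so no fall is read from Serpina1e. In the DKO of 1 day 4 of 9 male-biased genes fell, against 15.6% of all genes, led by Elovl3 (-3.57, adjusted p = 0.0202) and Hsd3b5 (-2.76, adjusted p = 0.0253).

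DNA methylation was read in 200 bp WGBS tiles in each gene and 5 kb around it, with 1 library per group and no test. All 5 loci are poor in CpG, with 5.42 per kb around Cyp2a12 to 10.2 per kb around Cyp1a2, and within 500 bp of the start sites the observed to expected CpG ratio was 0.091 to 0.168. Of the 316 tiles with both values 51 were at least 35 points lower at 15 weeks than in newborn, or 16.1%, against 1.64% of all tiles and 3.28% of tiles at tested genes. The share was 22.7% at Cyp2e1 (17 of 75 tiles), 19.6% at Cyp2a12 (10 of 51), 18.8% at Cyp2a4 (12 of 64), 13.8% at Cyp1a2 (9 of 65) and 4.92% at Cyp2a5 (3 of 61). The median gene had 2.01%, and among 10731 genes with at least 20 tiles Cyp2e1 ranked 156th, Cyp2a12 234th, Cyp2a4 268th, Cyp1a2 523rd and Cyp2a5 2490th. A level at least 35 points higher in adult was seen in 1 tile, at Cyp1a2, against 0.265% of all tiles.

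In the DKO, 64 of 317 tiles were at least 35 points above WT, or 20.2%, against 1.98% of all tiles and 4.73% at tested genes. None was as far below WT, against 0.247% of all tiles. By locus the higher tiles were 22 of 75 at Cyp2e1, 12 of 65 at Cyp1a2, 7 of 61 at Cyp2a5, 12 of 64 at Cyp2a4 and 11 of 52 at Cyp2a12. Of the 51 tiles lower in adult than newborn, 43 were at least 35 points higher in DKO than in adult WT, 13 of 17 at Cyp2e1, 7 of 9 at Cyp1a2, 3 of 3 at Cyp2a5, 11 of 12 at Cyp2a4 and 9 of 10 at Cyp2a12. Both comparisons use the same adult library, and 70.6% of all tiles lower in adult, and 84.8% of those at tested genes, were as much higher in DKO, so the share at the 5 loci is near that of tested genes. The mean over the tiles of a locus in newborn, adult WT and DKO was 77.4%, 54.1% and 79.0% for Cyp2e1, 81.3%, 67.9% and 82.0% for Cyp1a2, 74.4%, 63.7% and 75.4% for Cyp2a5, 77.2%, 60.8% and 76.4% for Cyp2a4, and 84.5%, 65.6% and 80.5% for Cyp2a12. The adult library was thus the lowest at each of the 5 loci, including Cyp2a12, whose RNA was not lower in DKO. It was also the lowest over all tiles of the genome, where the means were 78.6% in newborn, 75.8% in adult WT and 76.3% in DKO.

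Of the 51 tiles 28 lay inside the genes, with 13 before the start site and 10 after the end. At Cyp2e1 13 of 17 were inside the gene. H3K27ac regions of WT covered 25 of the 51 tiles (49.0%) and 69 of the other 265 (26.04%), and H3K4me1 regions 31 (60.8%) and 112 (42.3%), while 5hmC peaks covered 7 (13.7%) and 43 (16.2%). DKO H3K27ac regions covered 19 of the 51 tiles (37.3%) and 33 of the other 265 (12.5%). By gene, H3K27ac regions of WT and DKO covered 11 and 6 of the 17 such tiles of Cyp2e1 and 7 and 5 of the 9 of Cyp1a2. They covered 2 and 0 of the 3 of Cyp2a5, 5 and 8 of the 10 of Cyp2a12, and 0 of the 12 of Cyp2a4 in both. Tiles of 1 locus are neighbours in the same libraries, so these shares are descriptions.

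The sequences of the tiles around which the results turn are printed from the mouse reference build NCBIM37 (mm9), on the strand of the gene and with each CpG in capitals, since these are the bases measured. The first 2 are distal tiles with the largest fall at Cyp2e1 and Cyp1a2, at chr7:147947001-147947200 and chr9:57535601-57535800. The next lies closer to the start of Cyp1a2, at chr9:57531801-57532000. The last 2 are the tile that ends just before the start of Cyp2a4, chr7:27092001-27092200, and the tile that holds the start of Cyp2a5, chr7:27620201-27620400, which are shown because these starts are near-identical.
Cyp2e1 distal tile: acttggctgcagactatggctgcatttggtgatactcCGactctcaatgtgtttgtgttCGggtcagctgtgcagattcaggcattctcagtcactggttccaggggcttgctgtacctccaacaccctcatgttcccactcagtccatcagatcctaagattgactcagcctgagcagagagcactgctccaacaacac
Cyp1a2 distal tile: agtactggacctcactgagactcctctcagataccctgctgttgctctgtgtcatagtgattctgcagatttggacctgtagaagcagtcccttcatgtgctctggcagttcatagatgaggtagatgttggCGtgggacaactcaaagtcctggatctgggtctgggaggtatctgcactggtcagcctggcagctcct
Cyp1a2 proximal tile: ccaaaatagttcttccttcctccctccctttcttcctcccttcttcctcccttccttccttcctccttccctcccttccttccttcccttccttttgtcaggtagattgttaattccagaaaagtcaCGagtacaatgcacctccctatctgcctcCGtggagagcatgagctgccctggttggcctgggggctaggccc
Cyp2a4 upstream tile: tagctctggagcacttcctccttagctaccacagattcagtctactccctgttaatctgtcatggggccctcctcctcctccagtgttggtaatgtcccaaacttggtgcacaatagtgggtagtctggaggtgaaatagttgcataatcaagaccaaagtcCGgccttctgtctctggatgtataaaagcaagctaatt
Cyp2a5 start tile: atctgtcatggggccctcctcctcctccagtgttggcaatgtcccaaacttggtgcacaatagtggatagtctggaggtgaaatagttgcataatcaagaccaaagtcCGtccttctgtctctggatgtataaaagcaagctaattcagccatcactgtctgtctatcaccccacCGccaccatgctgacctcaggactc

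The Cyp2e1 distal tile, centred 2.63 kb before the start site and holding 2 CpG, went from 89.1% in newborn to 15.4% in adult WT and stood at 83.1% in DKO. At the Cyp2e1 start site itself methylation was already low, with 19.7% in newborn, 12.1% in adult and 22.5% in DKO in the tile at the start. Within the gene a tile of an intron 4.17 kb after the start went from 76.9% to 19.0%, with 79.2% in DKO, and one in a coding exon at 0.97 kb from 72.7% to 20%, with 74.0% in DKO. Tiles low in adult WT and high in DKO thus lay both upstream of Cyp2e1 and in its body.

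At Cyp1a2 the distal tile, 4.24 kb before the start site with a single CpG, went from 88.2% to 4% and was at 87.1% in DKO. The tile 0.439 kb before the start was at 49.2% in newborn, 0% in adult and 45.2% in DKO, and the tile over the start at 2.68%, 5.81% and 8.65%. Other tiles with large differences lay 3.04 kb and 2.64 kb before the start, at 85% and 68.1% in newborn, 18.9% and 12.5% in adult and 81.1% and 55.7% in DKO. The start site of Cyp1a2 was therefore low in all 3 libraries. Upstream tiles differed among themselves, since the one at 2.44 kb was at 10.8% in newborn, 0% in adult and 50% in DKO, and the one at 3.64 kb at 87.5%, 97.6% and 97.4%.

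The starts of Cyp2a4 and Cyp2a5 are alike in 295 of 300 bases, or 98.3%, from 200 bases before to 100 after the start site. Cyp2a4 has CpG at -48 and 74 in that stretch, counted from the start site, and Cyp2a5 at -49, 19 and 73. The Cyp2a4 upstream tile, with 1 CpG, was at 72.7% in newborn, 27.5% in adult and 89.3% in DKO, while the next tile, which holds the start of Cyp2a4 and 2 CpG, was at 60%, 62.2% and 64.8%. The Cyp2a5 start tile, with 2 CpG, was at 26.5%, 21.1% and 70.4%, so it was low in newborn and adult and high in DKO, and the tile after it was at 80.7%, 52.7% and 75%. Reads from stretches this alike may have been placed at either gene, which was not tested.

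Inside Cyp2a4 a coding exon tile 1.89 kb after the start went from 91.8% to 4.44%, with 75.4% in DKO, and an intron tile at 6.89 kb from 85.7% to 0%, with 77.8% in DKO. Another coding exon tile of Cyp2a4, with 1 CpG at 1.69 kb, was at 100%, 20.8% and 100%. A coding exon tile of Cyp2a5, 1.74 kb after its start, was lower in newborn, at 39.5%, with 3.57% in adult and 53.4% in DKO. A tile just past the end of Cyp2a5, 8.54 kb after the start, went from 66.7% to 0% and was at 61.8% in DKO, and an upstream tile 2.46 kb before the start from 72.9% to 18.5%, with 75% in DKO. Before the start of Cyp2a12, the tile at 0.408 kb went from 77.4% to 7.32%, with 80.3% in DKO. The tile at 0.208 kb was at 34.9%, 10% and 48.9%, and the one at 0.808 kb at 97.2%, 98.1% and 92.2%. Just after the start of Cyp2a12, the tile at 0.192 kb was at 30%, 3.7% and 9.09%. At Cyp2a12 the intron tile 1.39 kb after the start went from 89.3% to 13.6%, with 78.3% in DKO. A downstream tile of Cyp2a12, 10.8 kb after the start, was at 73.3%, 2.94% and 80%.

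**Figure D3:**
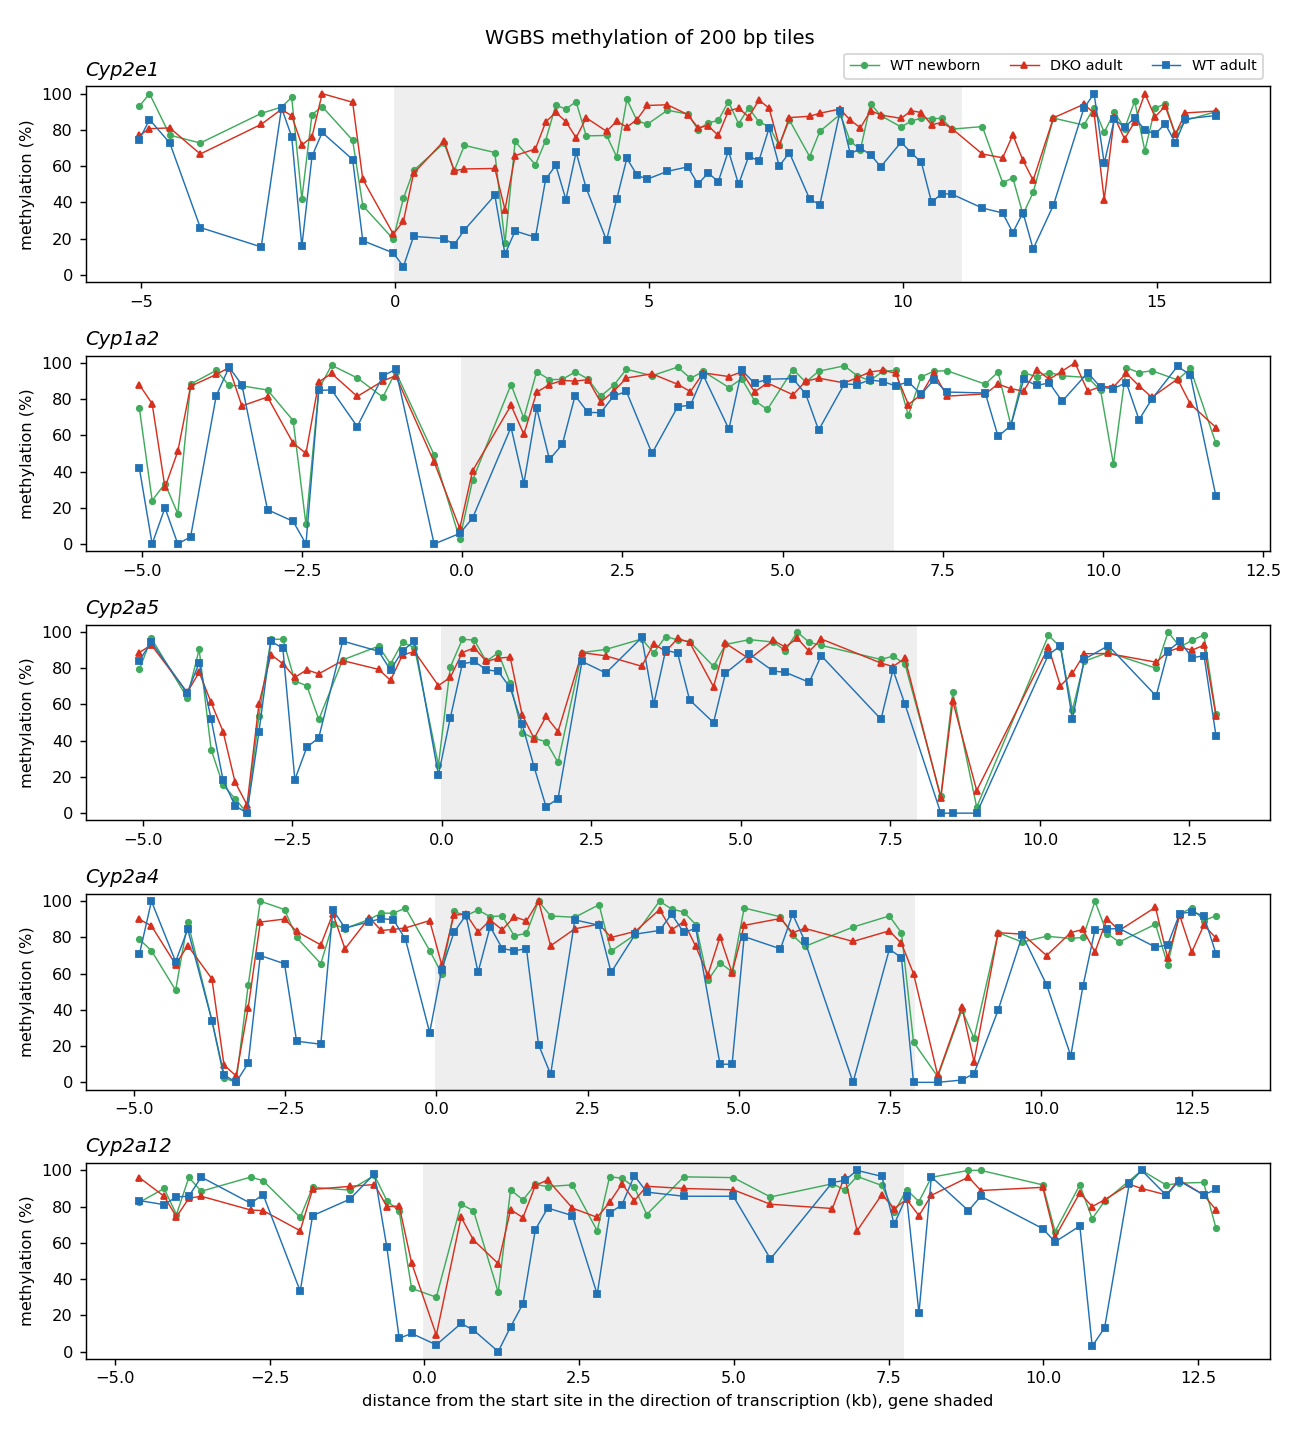
Methylation of 200 bp WGBS tiles (percent) against the distance from the start site in kb, along each gene (shaded) and 5 kb around it, in newborn WT, adult WT and adult DKO hepatocytes with 1 library each. The adult WT line drops below the newborn and DKO lines at all 5 loci, most widely over Cyp2e1.

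RRBS gave replicates at few places, since it reads CpG-rich fragments. Of 24 tiles of 100 bp listed in the 5 windows, 19 had a value in a hepatocyte sample, and 11 could be tested between the DKO and controls injected at 1 day, 5 at Cyp1a2, 4 at Cyp2e1 and 2 at Cyp2a12. No tile of Cyp2a4 or Cyp2a5 had enough values. The sequences of the 2 tiles described, at chr9:57529901-57530000 in a coding exon of Cyp1a2 and at chr7:147952901-147953000 in an intron of Cyp2e1, are shown with CpG in capitals.
Cyp1a2 exon tile: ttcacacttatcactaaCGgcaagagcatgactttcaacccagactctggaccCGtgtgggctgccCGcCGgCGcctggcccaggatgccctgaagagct
Cyp2e1 intron tile: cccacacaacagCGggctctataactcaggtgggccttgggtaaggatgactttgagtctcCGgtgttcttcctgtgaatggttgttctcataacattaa

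The Cyp1a2 exon tile, 1.51 kb after the start site and with 5 CpG, was at 35.7%, 27.03% and 12.1% in the controls injected at 1 day and at 92.8% and 100% in the DKO. The difference of 71.4 points (SE 12.1, adjusted p = 0.0207 by limma over all tiles tested) was called, as were 1.72% of tiles in this direction, and it was the only one of the 11 tiles. With injection at 3 weeks the Cyp1a2 tile was at 48.1%, 0% and 30.3% in controls and 90.9% and 89.0% in DKO, with no overlap, a difference of 63.8 points (SE 12.1, adjusted p = 0.0789) that did not pass, where 0.438% of tiles were called higher. Its level was 88.2% in the 1 sample of 3-week WT with a value, above every injected control. By animal number, the 3-week WT samples and control C of 3 weeks came from animals whose RNA libraries had Xist. Age and sex-linked transcripts therefore cannot be told apart between 3-week WT and the controls of 1 day in RRBS either. The call at 1 day was lost with a logit scale (adjusted p = 0.15), with only these groups in the fit (adjusted p = 0.0964) and without control B (0.0647), control C (0.0708), DKO A (0.0665) or DKO B (0.106), while the difference remained 65.0 to 76.8 points.

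In the InsR KO samples the Cyp1a2 exon tile was at 90.9% and 96%, 68.5 points above the controls injected at 1 day (SE 12.1, adjusted p = 0.039), where 0.346% of tiles were called higher. This call was lost under the logit scale (adjusted p = 0.322), with only these groups in the fit (0.168) and without any 1 of their samples (0.0711 to 0.121). The labels give no age for the InsR KO mice, which the study describes as injected right after birth and compared with adult WT. Cultured cells had 91.7% and 97.0%, fat 83.3% and neutrophils 100% at this tile.

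The Cyp2e1 intron tile, 3.22 kb after the start site and with 2 CpG, was at 80.8% and 98.0% in 3-week WT, 43.5%, 69.4% and 50.6% in controls injected at 1 day and 94.7% and 83.5% in their DKO. At 3 weeks of injection it was at 64.8%, 38.7% and 54.5% in controls and 70.4% and 87.3% in DKO. The groups did not overlap, but neither difference passed (34.6 points, SE 9.62, adjusted p = 0.164, and 26.2 points, SE 9.62, adjusted p = 0.533), and the difference of -34.9 points from 3-week WT to the controls of 1 day did not either (adjusted p = 0.266, with 0.299% of tiles called lower). InsR KO had 44.4% and 46.6%, cultured cells 95.5% and 98.7%, fat 77.8% and neutrophils 97.0% at this tile. The InsR KO value of Cyp2e1 was 8.99 points below the controls with a 95% interval from -30.6 to 12.6, whereas at Cyp1a2 it was above them. The 2 tiles past the end of Cyp2a12, at 11.4 and 11.6 kb, had means of 83.3% to 100% in all hepatocyte groups.

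**Figure D4:**
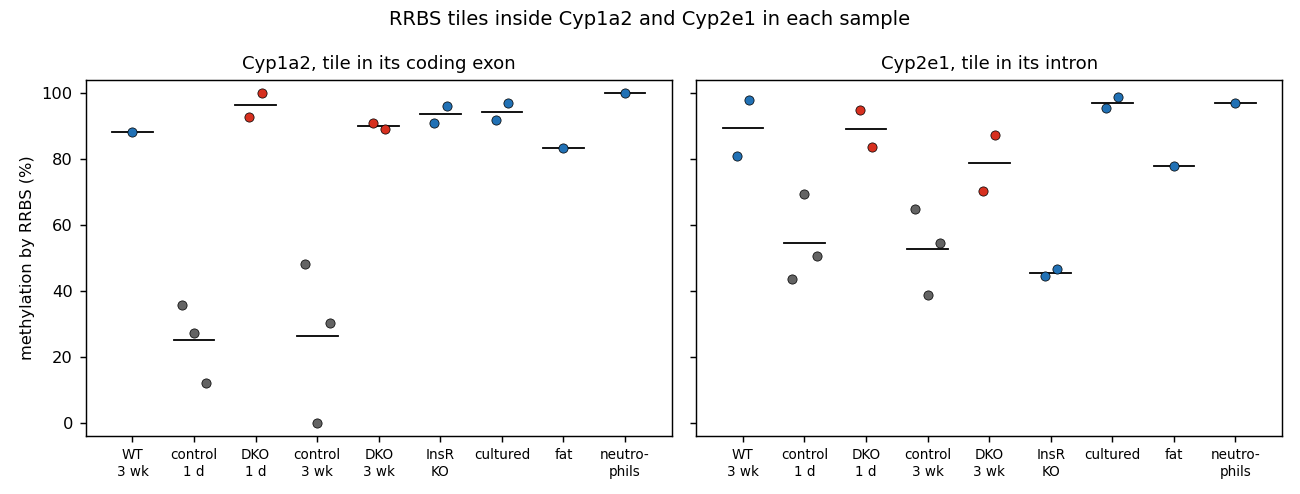
RRBS methylation (percent) of the Cyp1a2 exon tile and the Cyp2e1 intron tile in each sample, with bars at group means, for hepatocytes of 3-week WT, injected controls, DKO, InsR KO and cultured cells and for fat and neutrophils. Controls sit at 0 to 48.1% at Cyp1a2 and 38.7 to 69.4% at Cyp2e1, below all DKO samples.

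Regions marked by H3K27ac, found at active promoters and enhancers, and by H3K4me1, found at enhancers, were called from 1 library each of 15-week WT and of DKO hepatocytes injected at 1 day. The H3K27ac regions within 5 kb of Cyp2e1 covered 10853 bp in WT and 3509 bp in DKO, 32.3% of the WT length, the 93rd lowest share of 9260 genes with at least 1000 bp covered in WT. At Cyp1a2 the length went from 7004 to 4497 bp (64.2%) and at Cyp2a5 from 3881 bp to 0. Cyp2a12 went the other way, from 2514 to 4418 bp (176%), and Cyp2a4 had no region in either library. The median gene had 111%, and a length of at most 50% was seen in 2.57% of genes.

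Over the start site, tags scaled by the authors to 10000000 reads were read per region. The WT region over the Cyp2e1 start held 590.7 normalized tags and the DKO region 73.3, that of Cyp1a2 167.8 and 13.1, and that of Cyp2a5 27.3 in WT with no region in DKO. The region of Cyp2a12 held 72.6 in WT and 141.2 in DKO. Tags add up over a region, and the WT regions were longer at Cyp2e1 and Cyp1a2. The WT region of Cyp1a2 also overlapped other DKO regions, with 41.4, 28 and 5.08 tags, which the value of 13.1 leaves out.

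H3K4me1 covered 4700 bp at Cyp2e1 in WT and 2387 bp in DKO (50.8%), 65.0% of the WT length at Cyp1a2, 76.9% at Cyp2a5, 79.0% at Cyp2a12 and 80.2% at Cyp2a4. The median gene had 99.9% and 3.82% of genes had at most 50%. At the start site of Cyp1a2 the H3K4me1 region held 296.9 tags in WT and 92.6 in DKO, and at that of Cyp2a12 56.3 and 88.5. The WT region of Cyp1a2 also overlapped another DKO region upstream, with 156 tags, so these 296.9 and 92.6 tags cover unlike stretches. The counts cover 1 library per genotype, so the spread between animals is not known.

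Open chromatin was called by ATAC-Seq in 2 samples of WT and 2 of DKO, which the labels name liver and the study's methods hepatocytes. The peak at the Cyp2e1 start had 10.4 and 4.71 normalized tags in WT and 4.45 and 4.60 in DKO, so both WT values lay above both DKO values, the nearest being 4.71 and 4.60. The peak at Cyp1a2 had 5.61 and 3.05 in WT and 3.40 and 5.15 in DKO, which overlap, and neither difference was tested. Cyp2a12 had a peak at its start in 1 WT library (5.88) and both DKO libraries (5.87 and 7.37), and Cyp2a5 in 1 WT library alone (2.43). At the 5 loci 3 peaks were found in both WT libraries, at Cyp2e1 and Cyp1a2, and each of them was also found in DKO, while 7.34% of such peaks across the genome were in no DKO library. The 5hmC pull-down of WT hepatocytes, from mice of an age between newborn and adult, had 4 peaks at Cyp2e1, 5 at Cyp1a2, 2 at Cyp2a5, 1 at Cyp2a4 and 2 at Cyp2a12. One of those at Cyp1a2 covers the RRBS exon tile, and that of Cyp2a4 overlaps its exon tile with the largest difference.

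HNF6, the product of Onecut1, is a liver transcription factor whose binding was mapped in 2 samples of each genotype labelled liver. At the Cyp1a2 start a peak was called in WT library 2 (14.7 tags) and in both DKO libraries (7.85 and 27.5), and a distal one that overlaps the Cyp1a2 distal tile in the same libraries (6.73 in WT, 6.35 and 14.9 in DKO). WT library 1, with the fewest peaks (4387), had none at the 5 loci, and DKO library 2, with the most (34665), also had peaks at Cyp2e1, Cyp2a4 and Cyp2a12. The WT peak at chr9:57531475-57531633 holds the HNF6 core ATTGAT once, in capitals here on the strand of Cyp1a2.
Cyp1a2 HNF6 peak: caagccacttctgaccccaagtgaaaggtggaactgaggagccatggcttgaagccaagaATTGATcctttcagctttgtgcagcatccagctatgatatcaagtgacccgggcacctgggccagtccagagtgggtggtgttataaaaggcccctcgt

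Searched on both strands, ATTGAT occurs in 72.4 to 78.7% of HNF6 peaks of the 4 libraries and in 7.54% of 32851 RefSeq promoters (GRCm38.p6, 300 bases around the start), and all 5 genes matched a promoter, with only that of Cyp1a2 holding it. GCGTG, the core bound by the AHR complex, was in 32.4% of promoters and in none of the 5.

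**Figure D5:**
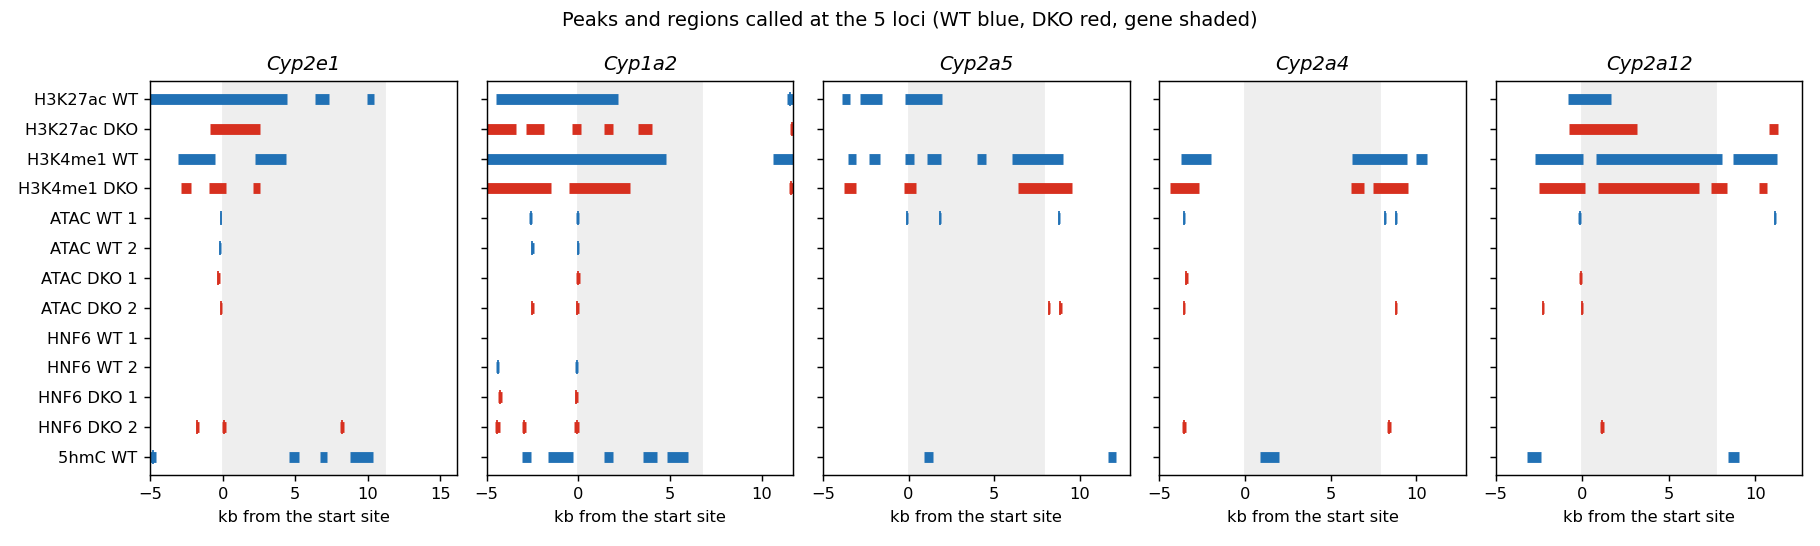
Regions and peaks called at each locus against the distance from the start site in kb, with 1 row per library, WT in blue, DKO in red and the gene shaded. H3K27ac is shorter in DKO at Cyp2e1 and Cyp1a2, missing at Cyp2a5 and longer at Cyp2a12.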

How the data were processed

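The authors made FPKM values from 50-base single-end RNA-Seq reads with TopHat2 and Cufflinks. They deposited methylation as a fraction of CpG readings, made with Trim Galore 0.3.3 and BSMAP 2.74 on mm9 in tiles of 100 bp (RRBS, at least 10 readings) or 200 bp (WGBS, at least 15), given here in percent. Peaks were called per library by the authors with Bowtie2 2.2.4 and HOMER, with a normalized tag signal and a score for each. Coverage per tile is not in the tables used, so the depth behind each percent is unknown. Columns were matched to groups by the animal numbers and conditions in their names, and 49 columns of per-sample values without a certain match were not used. The 5 genes, the gene lists and the tests were chosen with earlier results of these data known.

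limma 3.58.1 (R 4.3.3) was fitted on log2(FPKM + 1) over all 18 libraries, and on percent methylation over RRBS tiles with at least 2 values in each group, with Benjamini-Hochberg adjustment over all genes or tiles and a threshold of 0.05. SE come from these fits. In simulated libraries 200 of 11166 genes, each with a mean log2 level above 2, were raised by 2 log2 units. For DKO against controls all 200 were found at 1 day with 12 false calls and 194 at 3 weeks with 7. For 15 against 3 weeks 195 were found with 15 false calls. The simulated noise was normal and independent with no outlying library, so these counts do not measure how stable the real calls are. Named from the lists were the called genes with the largest differences, for each member the 3 most correlated genes, and all neighbours. Naming Glul, Lgr5, Cyp2c37 at 3 weeks, Hnf4a, Cebpb and Hmox1 at 1 day, Ahr and Por was decided after seeing their values. Scaling libraries to a median log2 ratio of 0 moved the median of all genes from -0.11 to 0.02 (DKO against controls of 1 day) and from 0.15 to -0.003 (15 against 3 weeks). Some items are not reported here.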

Additional observations from a re-analysis of the deposited data

Results flagged for a closer look

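Among the genes on the lists, 9 had an effect of deletion at 1 day that differed from the effect at 3 weeks by limma's test of the interaction itself, where 2.33% of all genes were higher and 3.04% lower. The effect at 1 day minus that at 3 weeks on the log2 scale was -3.63 for Cyp2c29, -3.26 for Cyp2c50, -3.07 for Cyp2c37 and -2.56 for Cyp2c54 (adjusted p = 0.000153, 0.00113, 0.0237 and 0.0117). These P450 genes had log2 differences of -4.69, -4.29, -4.88 and -3.57 at 1 day and -1.06, -1.03, -1.81 and -1.02 at 3 weeks. The value was -2.33 for Nr1i3 (adjusted p = 0.0351), -1.85 for Lect2 (adjusted p = 0.0481), -1.30 for Cebpb (adjusted p = 0.0223) and -1.27 for Sdsl (adjusted p = 0.0385). Tet2 had 1.42 (adjusted p = 0.0337), with 0.79 at 1 day and -0.63 at 3 weeks. Without library C of the controls injected at 3 weeks, Sdsl (-1.05, adjusted p = 0.0542) and Tet2 (1.33, adjusted p = 0.0501) no longer passed, and the other 7 did.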

How the results depend on the processing

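The log2 differences of the 5 genes kept their direction under every alternative run, 55 for the DKO of 1 day, 50 for the DKO of 3 weeks and 50 between the ages, and 10 of these moved by more than the spread between libraries. No paired analysis was possible because the columns carry animal numbers and not the replicate numbers of the labels. This holds for pairing the groups of a comparison by replicate number. The animal numbers do link RNA and RRBS columns of the same animals, and whether RNA and methylation go together by animal was not tested. Genes called at 1 day numbered 2228, with 1339 when only these groups entered the fit and 884 (without control C) to 2303 when 1 library was left out. At 3 weeks 586 were called, with 370 without the filter on low values, 1066 with scaled libraries, 28 with only these groups and 53 (without DKO B) to 411 with 1 library left out. Between the ages 3719 were called, with 2645 to 3679 when 1 library was left out. The difference between deletion times called 599 genes, with 128 without the filter, 2130 scaled, 116 with only these groups and 30 (without DKO B of 3 weeks) to 1740 (without DKO B of 1 day) with 1 library left out. RRBS tiles called for DKO at 1 day numbered 9772, with 5987 from these groups alone, 5968 at 35 points or more and 6589 to 14337 with 1 sample left out. For DKO at 3 weeks these were 2590, 1150, 1514 and 1506 to 6423, and for controls of 1 day against 3-week WT 2087, 1007, 1265 and 1122 to 8628. For InsR KO they were 3531, 638, 1405 and 2272 to 8226, with 2011 on the logit scale, and for cultured cells against 3-week WT 2319, 2, 1139 and 2621 to 9853. The 51 WGBS tiles lower in adult became 28 in the genes alone, 90 at 25 points and 24 at 50 points, and the 64 higher in DKO became 34, 97 and 29. Peaks at the 5 loci, in the genes alone, numbered 8 of 14 for 5hmC, 4 of 13 for ATAC in DKO and 3 of 14 in WT, 5 of 9 for H3K27ac in DKO, 10 of 16 for H3K4me1 in DKO and 9 of 16 in WT, 4 of 11 for HNF6 in DKO and 0 of 2 in WT. Among the higher-scoring 50% of peaks 1 remained for ATAC in each genotype, 5 for H3K27ac in WT, 8 and 7 for H3K4me1 in DKO and WT, and 1 for HNF6 in WT. The cause of these changes was not tested. Groups of 2 or 3 libraries and 1 library per group in WGBS and histone data limit the precision.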
